A study of Helianthus annuus with 142 samples.

Results

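Hybrids that share the parental line SF317 were compared with the other hybrids of a sunflower (Helianthus annuus) crossing series, to see how leaf gene expression and its change under drought go with that parent. A hybrid is written here as its first-named parent and its second-named parent, as in SF009_SF317. The 24 libraries of hybrids with SF317 as second-named parent were chosen by their labels from the 142 libraries of the series, and set against the 72 libraries of hybrids whose second-named parent is SF279, SF326 or SF342. In each set the first-named parent is SF009, SF092, SF109 or SF193, which gives 4 hybrids of SF317 and 12 other hybrids. Which parent bore the seed is not stated in the labels. Each library is the leaf RNA of a single potted plant. Control plants were kept at a fraction of transpirable soil water of 1 and stressed plants were left unwatered until that fraction reached 0.1, per the labels, with 3 plants per hybrid and water supply. The labels name no transgene and no treatment other than the water supply, and all groups are leaves.

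A hybrid of this kind carries a set of chromosomes from each parent. Where the parents hold different alleles of a gene, the level in the hybrid reflects the output of both alleles, and regulators that act on both can shift it. Leaves that lose soil water close their stomata, build up abscisic acid and change the transcription of many genes, among them genes of photosynthesis, osmotic adjustment and protein protection. The gene identifiers in the deposited table carry no symbol or description, and 0 of 58050 identifiers matched a RefSeq gene table of the species, so genes are described by position, level and behaviour, and no pathway or cell type marker could be examined. In leaf samples taken whole, a change in the share of a cell type and a change in RNA per cell cannot be told apart.

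Libraries of hybrids of SF317 held between 4868762 and 11135231 counts and those of the other hybrids between 3286863 and 13511377. The shares of counts from mitochondrial, plastid and ribosomal RNA genes and the TMM scaling factor were compared over hybrids at each water supply by exact permutation of the second-named parent within first-named parents, and no difference passed adjustment over 8 comparisons. The lowest raw p was 0.0469, for plastid genes in control plants, with 0.166% ± 0.0223 in hybrids of SF317 (SD, n = 4) and 0.199% ± 0.0308 in the others (SD, n = 12), an adjusted p of 0.375. Control replicates 1 and 3 of SF092_SF317 held the most ribosomal RNA of the hybrid libraries, with 0.0732% and 0.0489% of counts, and the next library held 0.0316%.

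Labels were checked on genes that were on in every plant of a parental line and below 0.1 CPM (counts scaled to a common library total) on average in each of the other 7 lines. For line SF317 there were 7 such genes. The 23 libraries of SF317 hybrids that were used held between 85.7% and 100% of them at 0.5 CPM or more, and the 71 other libraries held a median of 0% with a highest value of 28.6%. The library labelled SF092_SF317 stress replicate 3 held 0% and was left out, and so was the library labelled SF009_SF279 control replicate 1, which differed from the rest of its hybrid. That leaves 94 libraries. A doubt also falls on what was kept. The 5 remaining libraries labelled SF009_SF279 held 0% of 13 genes particular to line SF009, while the left-out control replicate 1 held 100% of them. The other hybrids labelled with SF009 as first-named parent held 76.9% or more of them in every library. Labels of the line SF009 itself were doubtful in an earlier look at these data, so levels given for that line carry the same doubt, though each of its libraries held the 13 genes by the rule. The left-out control replicate 1 also held 100% of 14 genes of line SF279, so it carried genes of both parents on its label. It held 0% of the genes of lines SF193 and SF317. By these genes the 5 kept libraries lacked the first-named parent on their label and the left-out library did not. The labels were not tested in another way. The 5 kept libraries held 92.9% or more of those 14 genes, 19.0% of 21 genes of line SF193 and 28.6% of the 7 genes of line SF317. They are part of the comparison group, and counts without any library of SF009_SF279, an alternative chosen after seeing the data, are given beside the main ones. All 18 libraries of SF009_SF326, SF092_SF326 and SF109_SF326 held between 35.7% and 50% of 14 genes of line SF279, and every library of SF193_SF326 held 0%. The same 18 libraries held 14.3% of the 7 genes of line SF317. No gene met the rule for line SF326, so the second-named parent of these 24 libraries could not be checked and stays in doubt. Leaving out all hybrids of SF326, chosen after seeing the data, is therefore given as well.

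Hybrids of SF317 differed from the other hybrids at many leaf genes, mostly by small amounts. One mean was fitted per hybrid and water supply, and SF317 was set against the mean of the other second-named parents within each first-named parent, with equal weights. The test uses the spread between plants within a group, so its calls hold for these 16 hybrids and not for other crosses of SF317. Of 34590 genes tested, 33.2% (11479) differed when both water supplies were averaged, at an adjusted p under 0.05 by the quasi-likelihood F-test of edgeR. Of these, 6792 were higher in hybrids of SF317 (19.6% of genes tested) and 4687 were lower (13.6%). Higher genes had a median log2 difference of 0.58 and lower genes one of -0.42, against 0.02 over all genes tested. The difference was over 2-fold for 1923 of the higher genes (28.3%) and 969 of the lower ones (20.7%). Without SF009_SF279, 6108 genes were higher and 4681 lower, and without hybrids of SF326 7147 were higher and 5491 lower. The excess of higher genes rests on the model: a model with a mean for each first-named parent and water supply and a shared SF317 term called 4765 higher and 5782 lower.

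Counts of this size were also found for other parents. The same contrast, centred in turn on each other second-named parent, called 11774 genes for SF279 (34% of genes tested), 7683 for SF326 (22.2%) and 11787 for SF342 (34.1%). These contrasts share plants with the one for SF317. Without SF009_SF279 the counts were 9698, 7626 and 11603.

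Taken 1 parent at a time, hybrids of SF317 differed from hybrids of SF279 at 12742 genes (36.8% of genes tested), from hybrids of SF326 at 8635 (25%) and from hybrids of SF342 at 11473 (33.2%). The same 23 plants of SF317 enter all of these contrasts. Without SF009_SF279 the counts were 10549, 8592 and 11373. Genes that passed against each of the 3 parents with the same sign numbered 1786 higher in hybrids of SF317 (5.16%) and 1511 lower (4.37%), or 1590 and 1480 without SF009_SF279. Of the 6792 genes higher than the mean of the others, 2212 passed against 1 of the 3 parents alone and 2729 against a pair of them. Of the 4687 lower genes, 1219 passed against 1 parent and 1919 against a pair. In 303 of the higher genes and 106 of the lower ones, at least 1 parent lay on the opposite side with a call of its own. The bars of called genes by comparison group show how the counts shrink from the pooled contrast to the genes that set SF317 apart from each parent.

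**Figure D1:**
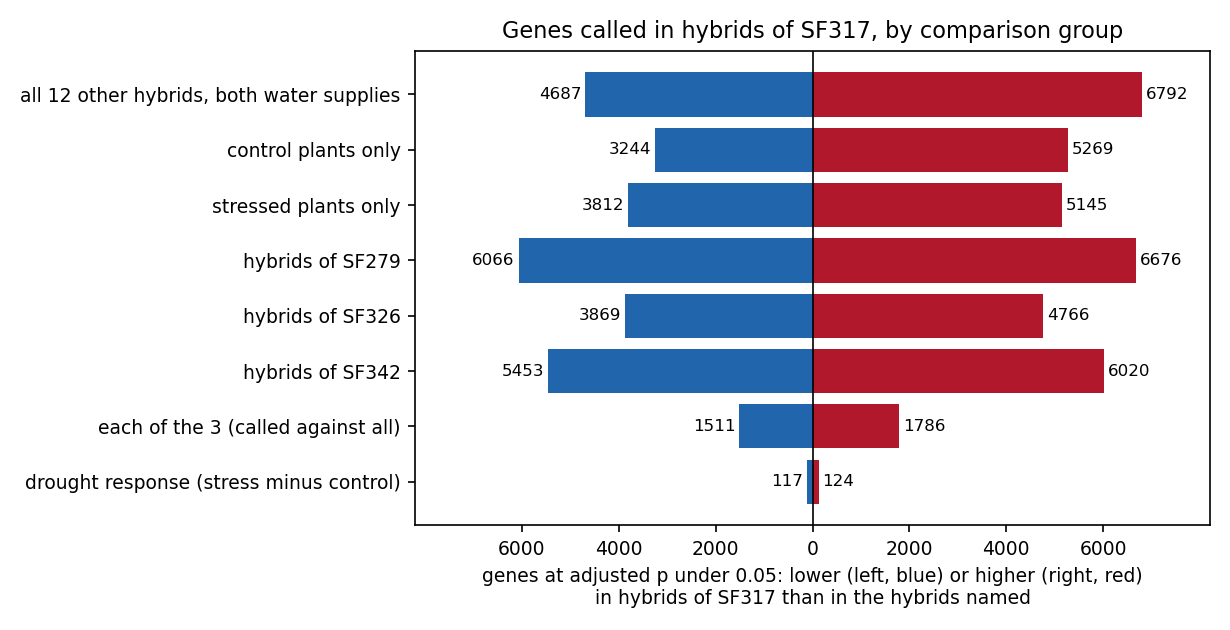
Genes called higher (red, right) or lower (blue, left) in hybrids of SF317 at an adjusted p under 0.05, by the group they were compared with; the horizontal axis is the number of genes. The pooled contrast gives 6792 higher and 4687 lower genes, the contrasts passed against each of the 3 parents 1786 and 1511, and the drought response 124 and 117.

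Direction was shared across the 4 first-named parents in most called genes. The sign of the difference was the same within SF009, SF092, SF109 and SF193 for 83.3% of the higher genes and 82.7% of the lower ones, and for 40.5% of all genes tested; the calls came from the same plants, so the first values are higher by construction. Tested within a single first-named parent, SF317 differed from the mean of the others at 5862 genes in hybrids of SF009 (16.9% of genes tested; 4384 without SF009_SF279), 4480 in those of SF092 (13%), 5439 in those of SF109 (15.7%) and 6571 in those of SF193 (19%). These use separate plants, and 1029 genes were called higher (2.97%) and 580 lower (1.68%) in all 4. The size of the SF317 difference varied with the first-named parent at 3526 genes (10.2%, F-test on 3 degrees of freedom, adjusted p under 0.05).

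Complete separation of the groups was rare. At 91 genes (0.263%) the means of all 4 hybrids of SF317 lay above those of all 12 others at both water supplies, and at 67 (0.194%) they lay below. Genes that were on in hybrids of SF317 alone, at 1 CPM or more there and under 0.1 CPM in every other hybrid, numbered 3, with a median of 2.02 CPM where on. All 3 were on in line SF317 and off in the other second-named and the first-named lines. No gene was off in hybrids of SF317 alone by the same limits.

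HanXRQChr13g0417441, on chromosome 13 from 164541808 to 164553103 on the plus strand, was 1 of the higher genes named. Positions here and for all other genes and windows follow the deposited table, and no source used here names its genome build. Its levels ran from 18.9 CPM through a median of 22.9 to 28.4 CPM in 12 control plants of SF317 hybrids, and from 26.9 through 29.6 to 34.1 CPM in 11 stressed plants. The other hybrids ran from 0.800 through 1.5 to 2.84 CPM in 35 control plants and from 0.558 through 1.75 to 6.43 CPM in 36 stressed plants. The plants of the 2 sets did not overlap at either water supply, and this gene and the other 3 named for a mean difference were chosen for hybrid means that did not overlap. The log2 difference was 3.95 (approximate SE 0.079, edgeR adjusted p = 1.39e-50). Plants of line SF317 held 44.0 ± 5.33 CPM under control and 45.9 ± 3.34 CPM under stress (SD, n = 3), above every hybrid plant. The first-named lines SF009, SF092, SF109 and SF193 had control means of 1.51, 1.44, 0.750 and 1.66 CPM, so all 4 hybrids lay between their parents.

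HanXRQChr17g0557931, on chromosome 17 from 122958395 to 122963577 on the minus strand, had the largest log2 difference among the higher genes named, 4.03 (approximate SE 0.062, edgeR adjusted p = 4.64e-56). Plants of SF317 hybrids held 15.4 to 31.7 CPM under control, with a median of 23.1, and 25.1 to 53.3 CPM under stress, with a median of 36.4. The other hybrids held 0 to 12.0 CPM under control, with a median of 0.666, and 0 to 15.4 CPM under stress, with a median of 4.86. Here the comparison group fell into a high and a low set, and the difference of 4.03 averages over both. Under the 18 alternatives it ran from 2.99 to 4.80. Line SF009 held 12.4 ± 4.21 CPM and line SF193 15.9 ± 1.31 CPM in control plants, whereas lines SF092 and SF109 held 0.472 ± 0.509 and 0.0937 ± 0.0840 CPM (SD, n = 3 each). Line SF317 held 36.8 ± 3.22 CPM.

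HanXRQChr13g0401661, on chromosome 13 from 92620983 to 92628495 on the plus strand, was the largest of the lower genes named, with a log2 difference of -4.59 (approximate SE 0.164, edgeR adjusted p = 7.28e-36). Plants of SF317 hybrids held 0 to 3.28 CPM under control, with a median of 0.357, and 0.135 to 3.01 CPM under stress, with a median of 0.451. The other hybrids held 5.35 to 16.3 CPM and 6.22 to 24.9 CPM, with medians of 9.04 and 12.9. Among the SF317 hybrids, SF193_SF317 stood highest, with 3.28, 1.36 and 0.396 CPM in its control plants and 3.01, 2.10 and 0.455 CPM in its stressed plants. Line SF317 held 0.324 ± 0.0840 CPM under control and line SF092 8.22 ± 1.78 CPM (SD, n = 3 each), and the control plants of their hybrid, SF092_SF317, held 0.631, 0.318 and 0.496 CPM. This hybrid therefore lay at the level of its low parent.

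HanXRQChr17g0546321, on chromosome 17 from 46118535 to 46124852 on the minus strand, was lower in the same way, by a log2 difference of -3.85 (approximate SE 0.147, edgeR adjusted p = 2.67e-34). Control plants of SF317 hybrids held 0 to 0.921 CPM, with a median of 0.157 and 4 of 12 plants at 0, and the other hybrids 1.71 to 6.67 CPM. In SF092_SF317 the 3 control plants held 0, 0.159 and 0 CPM, while line SF092 held 7.71 ± 1.41 CPM and line SF317 0.458 ± 0.397 CPM (SD, n = 3 each). Here too the hybrid lay at the level of its low parent. Lines SF009, SF109 and SF193 had control means of 0.917, 0.454 and 0.514 CPM, so the other SF317 hybrids had low levels in both parental lines. Under stress the ranges were 0.564 to 1.26 CPM in hybrids of SF317 and 3.97 to 11.3 CPM in the other hybrids. The gene rose under drought in both sets, by a log2 change of 2.19 in hybrids of SF317 and 1.32 in the others, and these changes did not pass a test of their difference (edgeR adjusted p = 0.366). The plants of all 4 named genes are shown by second-named parent in the plot of levels on a log scale.

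**Figure D2:**
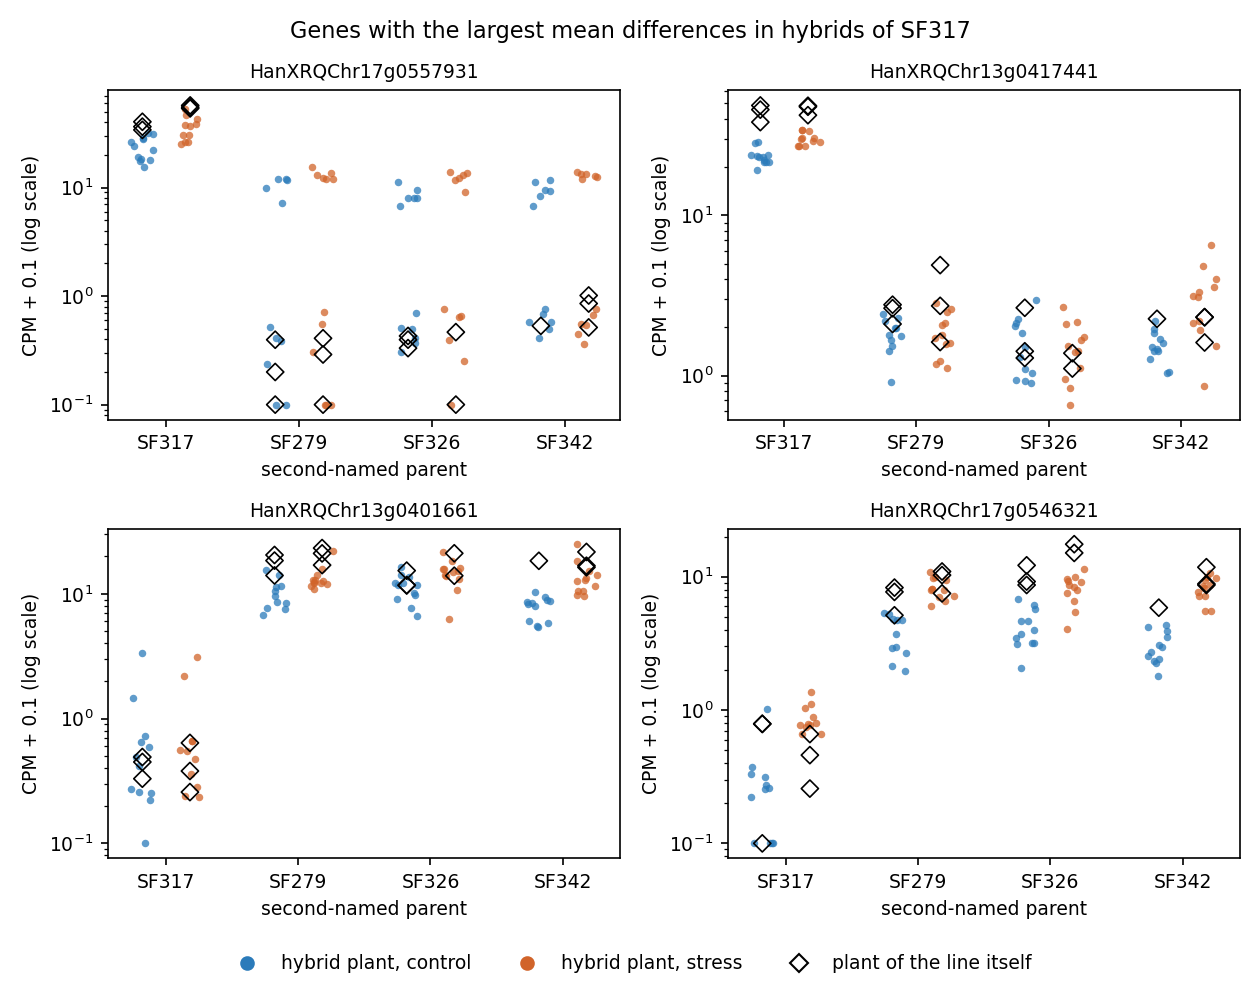
Level of 4 genes in single plants, as CPM + 0.1 on a log scale (vertical axis), by second-named parent (horizontal axis); dots are hybrid plants under control (blue) or stress (orange), and open diamonds are plants of the line itself. HanXRQChr13g0417441 runs from 18.9 to 34.1 CPM in hybrids of SF317 and from 0.558 to 6.43 CPM in the others, and HanXRQChr17g0557931 falls into a high and a low set among the others.

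The difference seen in hybrids was next set beside the difference between the parental lines, which rests on other plants. Line SF317 was compared with the mean of lines SF279, SF326 and SF342 in 21 libraries, and 32.6% of 33001 genes differed (10756), with 6288 higher (19.1%) and 4468 lower (13.5%). Line SF342 had only 1 control library, and line SF326 had 2 stress libraries after its doubted replicate 3 was left out. Without replicate 3, which takes out line SF342, 6099 genes were called. Of the 6558 genes called higher in hybrids and tested in both, 64.9% were called higher in the line and 0.412% lower, where 19.2% of all genes tested in both were called higher. Of the 4623 called lower in hybrids, 54.5% were called lower in the line and 1.56% higher, where 13.7% of all were called lower. Among genes different from each of the 3 parents in hybrids, 85.4% of the higher and 76.0% of the lower ones were called with the same sign in the lines. In the other direction, 69.1% of 6158 genes higher in line SF317 were called higher in its hybrids, and 57.5% of 4379 lower ones were called lower. Of all genes tested in both, 20.5% were called higher and 14.4% lower in the hybrids.

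The differences were smaller in hybrids than in lines. Compared hybrids differ only in the second-named parent and share the first-named one, so a smaller difference can come from the design. Its source was not tested. On the linear scale the median hybrid difference was 0.367 of the line difference for genes higher in line SF317 (quartiles 0.182 and 0.557) and 0.333 for lower ones (quartiles 0.134 and 0.539). These genes were picked for a difference in the lines, which can enlarge the line value. Across 32058 genes the log2 differences had Pearson's r of 0.81, a description over genes that are not independent replicates. The 7 genes particular to line SF317 had a median ratio of hybrid to line level of 0.506, and each lay between 0.25 and 0.75 of the line. Their median ratio ran from 0.413 in stressed SF193_SF317 to 0.544 in control SF109_SF317. The plot of line and hybrid differences shows the cloud lying flatter than the line of equal differences.

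**Figure D3:**
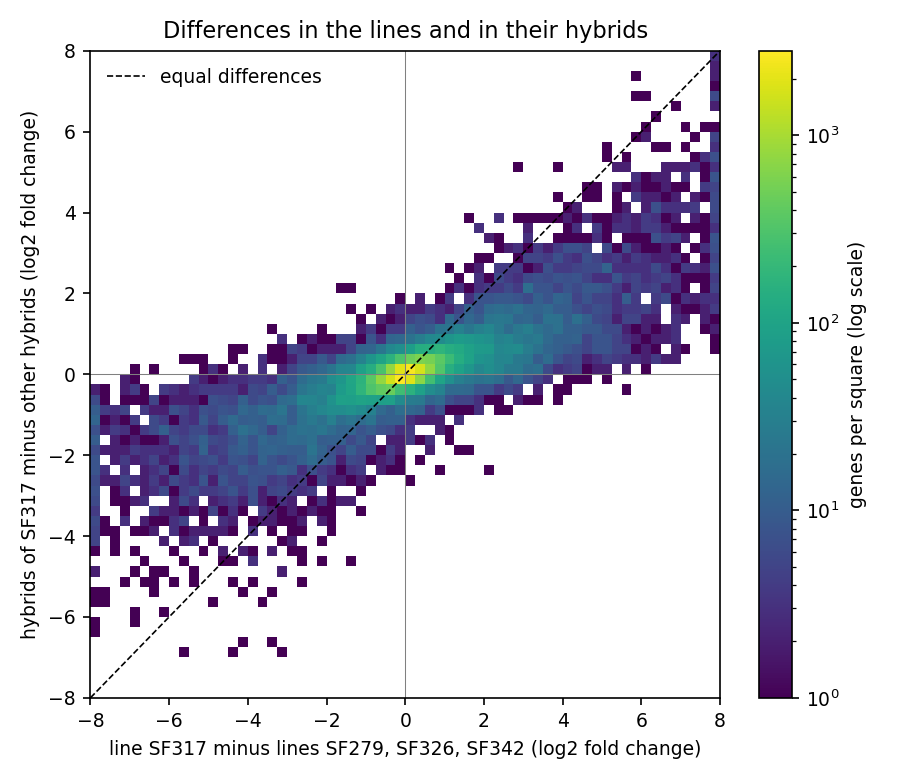
Log2 difference between line SF317 and the other second-named lines (horizontal axis) and between hybrids of SF317 and other hybrids (vertical axis) for 32058 genes, with the colour giving genes per square on a log scale; the 183 line values and 3 hybrid values beyond 8 are gathered at the edges. Most genes with a large line difference lie nearer 0 in hybrids than the dashed line of equal differences.

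The called genes were spread over all 17 chromosomes. The share of tested genes called ran from 27.6% on chromosome 15 to 42.0% on chromosome 1, where 28.2% were higher and 13.8% lower. Among genes different from each of the 3 parents, lower genes outnumbered higher ones on chromosomes 13 (186 against 122), 14 (138 against 72), 15 (105 against 49) and 16 (143 against 94). On the other 13 chromosomes higher genes were in excess, as on chromosome 1 with 146 higher and 68 lower. Those 4 chromosomes kept their excess of lower genes with RLE size factors, library totals, the model with a shared SF317 term, DESeq2 and without SF009_SF279. Chromosome 10 also turned to an excess of lower genes with library totals.

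In windows of 5 Mb with at least 20 tested genes, 594 in all, a median of 32.7% of genes were called, with a range from 4% to 66.7%. The densest was chr17:175000001-180000000, with 18 of 27 genes called. The window chr16:165000001-170000000 had 46 of 71 genes called, 33 of them lower in hybrids of SF317, and chr17:150000001-155000000 had 29 of 45. These windows were named as the highest by share called, and the other windows below were picked after their values were seen. For genes different from each parent the densest was chr3:35000001-40000000, with 22 of 47 genes (46.8%), where the median window held 7.84%. The lowest share called, 1 of 25 genes, was on chromosome 6 from 85000001 to 90000000. Neighbouring genes share a haplotype in each line, so windows are not independent. Among organelle genes, 5 of 25 tested mitochondrial genes were higher and 6 lower, and 0 of 6 plastid genes passed, beside 19.6% higher and 13.6% lower over all genes tested. The first count is near that share, and the numbers of genes are small.

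Genes that respond to drought in the lines were called at rates near or below the 33.2% of all genes tested. Of 5970 genes that rose under drought in the lines, 32.9% were called between SF317 hybrids and the others. The call rate was 26.2% for 6001 genes that fell and 36.4% for 21445 genes without a drought call in the lines. Over all genes tested 19.6% were higher and 13.6% lower in hybrids of SF317, with a median log2 difference of 0.02. Among rising genes 862 were higher (14.4%) and 1103 lower (18.5%), with a median of -0.04. Among falling genes 1067 were higher (17.8%) and 503 lower (8.38%), with a median of 0.07. Both splits kept their direction under RLE size factors, library totals, the model with a shared SF317 term and DESeq2, without SF009_SF279 and without hybrids of SF326. The difference between the classes was not tested. By mean level, 25.4% of the genes in the lowest of 4 equal classes and 37.9% of those in the third class were called, with a median absolute log2 difference of 1.08 and 0.37 among the called.

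The difference was present at both water supplies. In control plants alone 24.6% of genes differed (8513), with 5269 higher (15.2%) and 3244 lower (9.38%), and in stressed plants alone 25.9% (8957), with 5145 higher (14.9%) and 3812 lower (11%). These use separate plants. Without SF009_SF279 the counts were 7867 and 8460, and without hybrids of SF326 they were 8541 and 10420. Both contrasts called 5368 genes, which is 63.1% of the control calls and 59.9% of the stress calls. Of them 5339 had the same direction and 29 the opposite one.

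Most genes changed under drought in both sets, and the change itself was called different at few. Stress against control passed at 21527 genes in hybrids of SF317 (62.2% of genes tested) and at 24999 in the others (72.3%), where there were more plants. The drought response of SF317 hybrids was larger upward or smaller downward than that of the others at 124 genes (0.358% of genes tested) and the reverse at 117 (0.338%), 241 in all (0.697%, same test and threshold), with 3829 genes at an unadjusted p under 0.05. The median difference in log2 response was 0.89 and -0.81 in these lists and -0.02 over all genes tested. Centred on the other second-named parents, the same contrast called 251 genes for SF279 (0.726%), 42 for SF326 (0.121%) and 367 for SF342 (1.06%). Without SF009_SF279 the count for SF317 was 202, and those for the other parents were 126, 32 and 340. In counts simulated with this design, 14.9% of 1.5-fold and 59.7% of 2-fold differences in response were recovered. For the mean difference the values were 65.7% and 89.6%. The simulated spread was preset by a formula, not taken from these plants, and did not differ between control and stress. In that simulation differences in response were missed more often than mean differences, and the shares need not hold for these data.

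The count depended on the model and on the plants included. The model with a shared SF317 term called 23 up and 99 down, and DESeq2 262 up and 272 down. With both doubted libraries kept there were 253 up and 182 down, and without hybrids of SF326 231 up and 160 down. The count was 49, 46 and 31 without replicate 1, 2 and 3, which each take 1 plant out of every group, and 122 without control replicates 1 and 3 of SF092_SF317, the plants with most ribosomal RNA (chosen after seeing the data). Of the 241 genes, 10 were called with the same sign under all 18 alternatives, 7 of them upward and 3 downward.

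Of the 124 genes with a response difference upward, 35 rose in both sets, 35 fell in both and 54 had opposite signs, with a median log2 response of 0.49 in hybrids of SF317 and -0.37 in the others. Of the 117 downward, 32 rose in both, 42 fell in both and 43 had opposite signs, with medians of -0.38 and 0.30. Opposite signs were found at 11.4% of all genes tested, and a choice by the difference in response favours them. In the lines, 27 of the 124 were called rising and 22 falling, and of the 117 the counts were 28 and 30, where 17.3% of all genes tested were called in either direction alone. The sign of the difference was the same in all 4 first-named parents for 115 and 109 of them, where 19.2% of all genes tested had the same sign throughout; the calls came from the same plants, which raises the first values. Against each other parent alone, the response differed at 287 genes for SF279 (0.83%), 125 for SF326 (0.361%) and 452 for SF342 (1.31%). Without SF009_SF279 the counts were 179, 103 and 440. The response lay above that of each of the 3 at 16 genes (0.0463%) and below it at 4 (0.0116%). Tested within a single first-named parent, the response differed at 7 genes in hybrids of SF009 (0.0202%; 13 without SF009_SF279), 15 in those of SF092 (0.0434%), 27 in those of SF109 (0.0781%) and 4 in those of SF193 (0.0116%). The size of the response difference varied with the first-named parent at 10 genes (0.0289%).

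HanXRQChr14g0447821, on chromosome 14 from 132918673 to 132927032 on the minus strand, passed under all 18 alternatives. In SF009_SF317 its levels were 1.85, 2.17 and 9.66 CPM under control and 1.05, 0.338 and 0.555 CPM under stress. In SF092_SF317 they were 7.15, 4.14 and 5.26 CPM under control and 0.280 and 0.270 CPM under stress. SF109_SF317 held 0.519, 2.03 and 1.89 CPM and then 0.658, 0.188 and 0.140 CPM, and SF193_SF317 held 2.93, 4.18 and 2.77 CPM and then 0.144, 0.764 and 1.59 CPM. Every SF317 hybrid thus had a lower mean under stress, though 1 control plant of SF109_SF317 lay within its stressed range. The other hybrids had a median of 3.11 CPM under control and 5.09 CPM under stress, with single plants from 0.138 to 14.4 CPM. The gene fell in hybrids of SF317, by 2.71 on the log2 scale, and its log2 change in the others, 0.19, did not pass (edgeR adjusted p = 0.388). That value averages over parents whose means moved in opposite directions, which was not tested parent by parent. Mean levels went from 2.38 ± 0.333 to 1.46 ± 0.945 CPM in hybrids of SF326, from 3.25 ± 0.652 to 5.95 ± 0.702 CPM in those of SF279 and from 4.68 ± 1.74 to 6.10 ± 0.756 CPM in those of SF342 (SD, n = 4 each). Lower means under stress were therefore also found in hybrids of SF326. Among the lines, means fell under stress in SF317, from 1.89 to 0.378 CPM, and in SF326, from 2.13 to 0.833 CPM. First-named lines SF009, SF092, SF109 and SF193 went from 9.28, 0.900, 0.588 and 2.25 CPM to 1.21, 0.362, 0.472 and 0.632 CPM. Lines SF279 and SF342 rose, from 4.48 to 7.44 CPM and from 2.45 (1 control plant) to 6.71 CPM. Changes within single lines were not tested. The difference in response between hybrids of SF317 and the others was -2.90 (approximate SE 0.431, edgeR adjusted p = 1.55e-05). Against hybrids of SF326 alone it was -1.77 and did not pass (edgeR adjusted p = 0.147).

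HanXRQChr12g0360091, on chromosome 12 from 18331448 to 18333905 on the plus strand, rose in the other hybrids and did not pass in those of SF317. The other hybrids went from 2.32 ± 1.20 CPM to 8.78 ± 3.92 CPM (SD over 12 hybrids), a log2 change of 2.06. Hybrids of SF317 held 5.86 ± 1.61 CPM under control and 5.40 ± 1.76 CPM under stress (SD, n = 4), a log2 change of -0.10 that did not pass (edgeR adjusted p = 0.811). Single SF317 plants ran from 2.70 through a median of 4.76 to 11.8 CPM under control and from 1.96 through 4.85 to 11.3 CPM under stress, and the ranges overlapped. Line SF317 held 5.74 ± 2.70 and 5.29 ± 2.56 CPM (SD, n = 3). The difference in response was -2.16 (approximate SE 0.332, edgeR adjusted p = 3.01e-05), and without replicate 3 it was -1.92 with an adjusted p of 0.0545.

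Both genes named for an upward difference in response, by a rule that asks for the same sign within all 4 first-named parents, had plants at 0. Outside that rule HanXRQChr09g0244221, chosen after its values were seen, had a larger difference of 3.13 (edgeR adjusted p = 9.15e-07), with the opposite sign within SF193. HanXRQChr13g0416071, on chromosome 13 from 159161854 to 159165023 on the minus strand, held 0, 0 and 0 CPM in control plants of SF092_SF317 and 4.19 and 0 CPM in its stressed plants. The other 3 hybrids of SF317 held 5.73 to 9.88 CPM under control and 2.25 to 5.64 CPM under stress. In those 3 every stressed plant lay below every control plant, and in the other hybrids the gene fell from 13 ± 4.23 to 4.34 ± 1.23 CPM (SD over 12 hybrids). The fitted response difference was 2.51 (approximate SE 0.390, edgeR adjusted p = 3.85e-05), a value that depends on how a group at 0 is handled. It was 8.36 within SF092 and between 0.30 and 0.80 within the other first-named parents, and without hybrids of SF092 it was 0.56 and did not pass (adjusted p = 0.381). Line SF317 held at most 0.174 CPM of this gene.

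HanXRQChr16g0518451, on chromosome 16 from 122632649 to 122636386 on the minus strand, showed plants of 1 hybrid at 0 and others well above it. SF193_SF317 held 0, 0 and 0 CPM under control and 0, 0 and 15.1 CPM under stress. SF092_SF317 held 0.210, 0 and 7.84 CPM and then 0.559 and 13.1 CPM, and SF109_SF317 held 5.02, 0 and 0 CPM and then 12.4, 16.7 and 8.67 CPM. SF009_SF317 was on throughout, with 20.4, 14.5 and 17.1 CPM and then 27.2, 36.6 and 38.4 CPM. In the other hybrids the lowest plant held 6.89 CPM, and in line SF317 the highest held 0.280 CPM. Lines SF009 and SF092 had control means of 20.8 and 7.05 CPM. Lines SF109 and SF193 had 0.0791 and 0 CPM under control and 0.0428 and 0 CPM under stress. Some plants of SF109_SF317 and SF193_SF317 were thus on though both labelled parental lines were near 0, and the reason was not tested. The fitted response difference of 2.56 (approximate SE 0.634, edgeR adjusted p = 0.0307) was 0.90 without hybrids of SF193 and did not pass there (adjusted p = 0.544), nor without those of SF326 (2.57, adjusted p = 0.0781). Genes with plants of an SF317 hybrid both off and on made up 2.90% of the 241 response genes (7) and 2.60% of all genes tested.

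**Figure D4:**
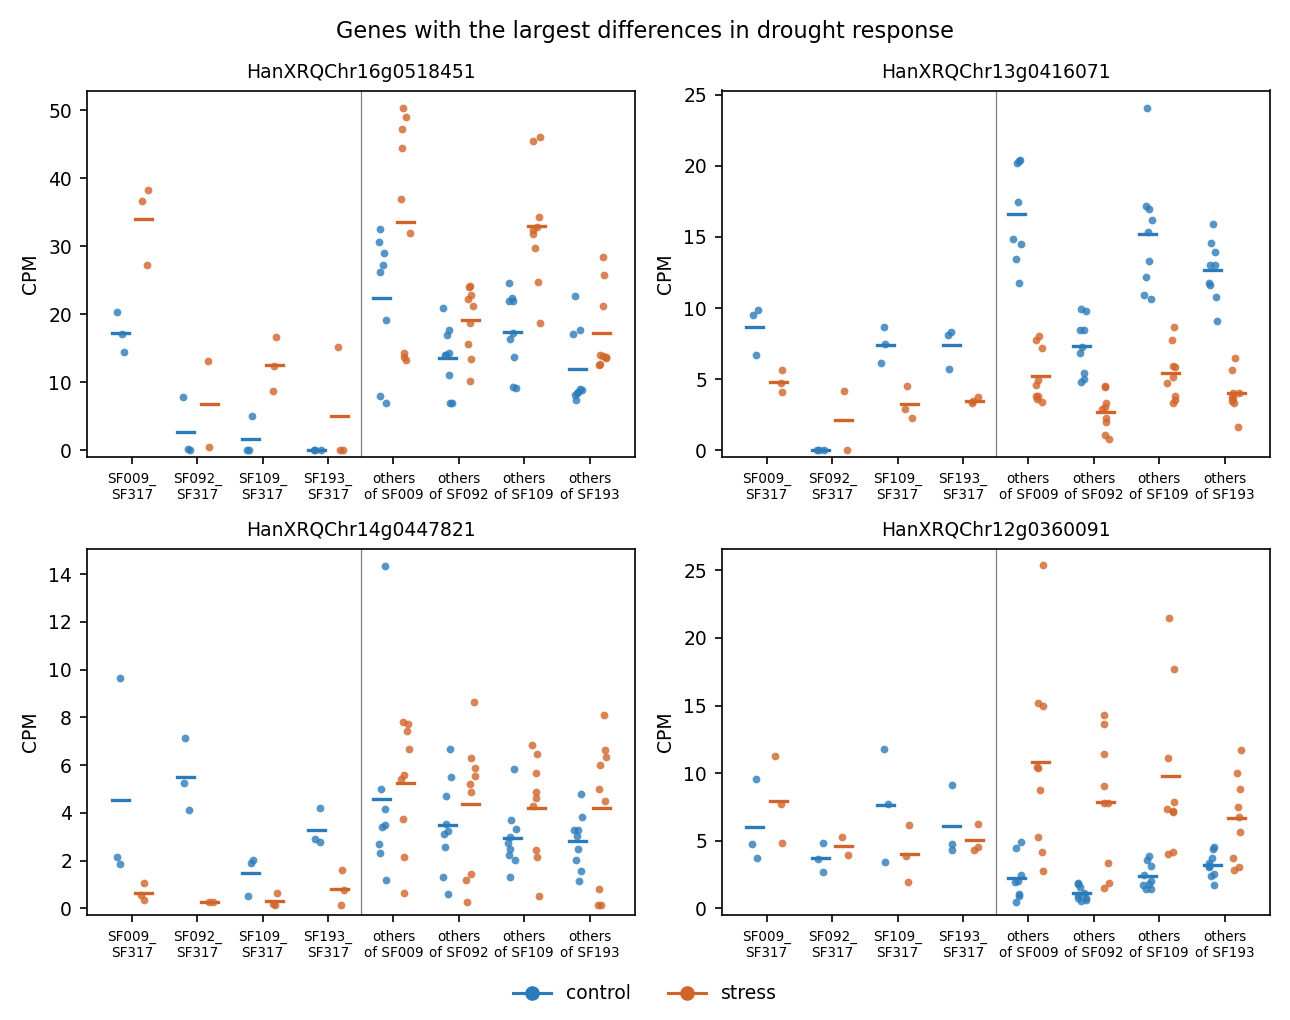
Level in CPM (vertical axis) of 4 genes in single plants of the 4 SF317 hybrids (left of the grey line) and of the other hybrids by first-named parent (right), under control (blue) and stress (orange), with short lines for group means. HanXRQChr14g0447821 lies lower under stress in hybrids of SF317, HanXRQChr12g0360091 rises in the others, and the upper genes have SF317 plants at 0 CPM.

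The overall size of the drought response was compared as well. For each hybrid the log2 changes were regressed through the origin on the mean log2 changes of 7 lines, over the 12069 genes (34.7%) with a drought call in the lines. A slope of 1 means the same size of change as in the lines. Hybrids of SF317 had a slope of 1.55 ± 0.139 (SD, n = 4) and the other hybrids 1.61 ± 0.189 (SD, n = 12). The difference of -0.064 did not pass an exact two-sided permutation test of the second-named parent within first-named parents (p = 0.594). The smallest p that 2 extreme arrangements give is 0.00781. Without hybrids of SF326 the difference was -0.126 (exact permutation p = 0.210). Within first-named parents the difference was 0.079 for SF009, 0.070 for SF092, -0.308 for SF109 and -0.098 for SF193, a spread (SD 0.182) wider than the mean difference.

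Single stressed plants scored on the same axis ran from 0.695 through a median of 1.65 to 1.73 in 11 plants of SF317 hybrids and from 0.506 through 1.75 to 1.97 in 36 others. The low slope of SF109_SF317, 1.35, came with 1 plant at 0.695 beside a highest plant at 1.69. The 3 plants of SF009_SF317 lay close together, between 1.65 and 1.73. Low plants also occurred in the comparison group, as in SF009_SF326 and SF092_SF326, with lowest plants at 0.506 and 0.617. Genes rising in the lines had a median log2 change of 0.724 ± 0.0722 over hybrids of SF317 and 0.709 ± 0.0788 over the others (SD), and falling genes -1.12 ± 0.0886 and -1.20 ± 0.162. Neither passed the exact permutation test (p = 0.781 and p = 0.410, adjusted p = 0.781 for each over 3 measures). The plot of slopes by second-named parent shows the 4 sets overlapping.

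**Figure D5:**
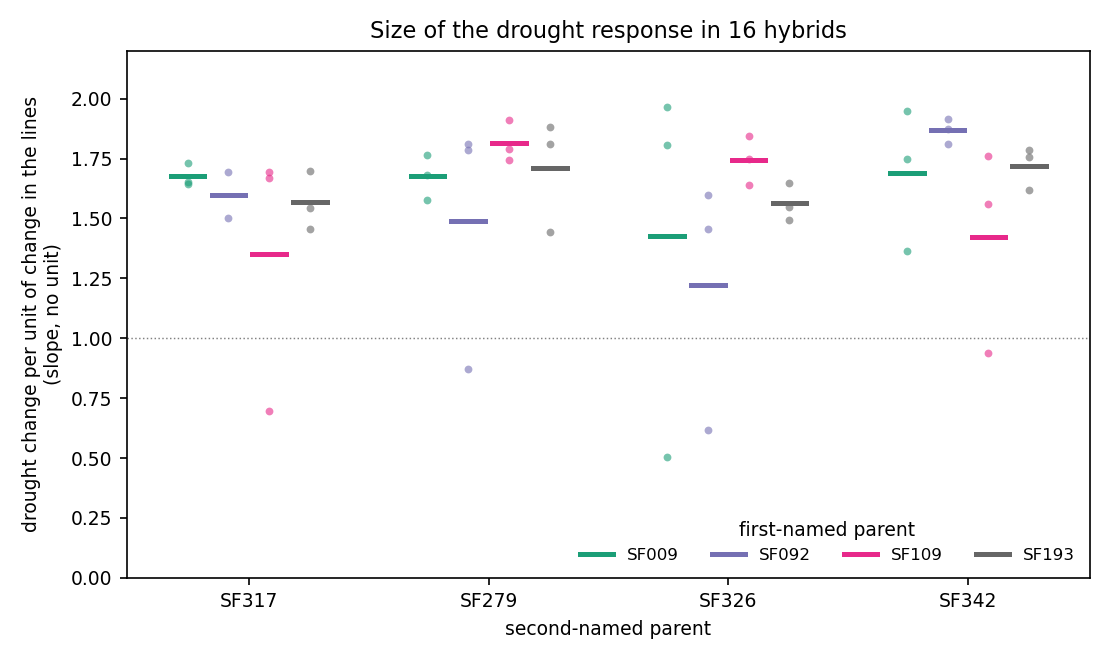
Slope of each of 16 hybrids on the mean drought change of the lines (short bars, no unit, vertical axis) by second-named parent (horizontal axis) and first-named parent (colour), with dots for single stressed plants. Hybrids of SF317 lie between 1.35 and 1.68 and the other hybrids between 1.22 and 1.87.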

How the data were processed

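Leaf RNA-seq of 8 sunflower lines and 16 hybrids was deposited as raw counts for each gene in 142 libraries, in a table that per the file headers also gives gene positions and gene length in bases (an annotation column, neither counts nor a score). The CPM values of a second table, scaled by the authors, served only to set the genes of 1 alternative. Per the submitters' processing notes edgeR 3.16.5 and R 3.3.3 were used, with no role stated. No source used here names the aligner, counter, strand setting or genome build, so reads from overlapping or near-identical genes may be split.

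The 17 ribosomal RNA genes were left out. Leaving out 2 libraries with doubtful labels left 94 hybrid libraries. Genes passed filterByExpr, libraries were scaled by TMM, and 32 group means were fitted with the quasi-likelihood F-test of edgeR 4.0.16 (R 4.3.3) at a Benjamini-Hochberg adjusted p of 0.05 over all 34590 genes. SE were taken as the log2 difference over the square root of F and are approximate. CPM use TMM over all libraries, with a prior count of 2 on the log2 scale. Slopes and permutations were run in Python 3.11.15. The lines' drought calls use 39 libraries of 7 lines, without line SF009, whose labels were in doubt. Line SF342 enters them with 1 control library. Fits were tested on simulated counts before use.

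Alternatives were RLE size factors, library totals, no filter, DESeq2 1.42.0, a model with a shared SF317 term, a replicate block, leaving out each replicate, each first-named parent or the hybrids of SF326, keeping the doubted libraries, and the genes of the deposited filtered table. The members and gene classes were chosen with earlier results of these data known. Named genes were the 2 largest differences in each direction whose log2 CPM averaged 1 or more and, for the mean difference, no overlap between the 4 and 12 hybrids at either water supply, or, for the drought response, the same sign within all 4 first-named parents. Libraries carry no molecular identifiers, and p-values measure the spread between single plants.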

Additional observations from a re-analysis of the deposited data

Results flagged for a closer look

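Several values of single hybrids stood apart from the other 3 hybrids of SF317, in 25 such sets of 4 looked at, where chance gives about 1 in 20. Ribosomal RNA genes took 0.0408% of counts in control plants of SF092_SF317, and at most 0.00293% in the others. HanXRQChr13g0401661 had a mean of 1.86 CPM in stressed SF193_SF317, and the next hybrid held 0.359 CPM. HanXRQChr16g0518451 had a mean of 17.3 CPM in control plants of SF009_SF317, above the next at 2.68 CPM. HanXRQChr13g0416071 was at 0 CPM in control plants of SF092_SF317, below the next at 7.38 CPM.

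The difference between hybrids of SF317 and the others varied with the first-named parent at 3526 genes for the mean and at 10 genes for the drought response (edgeR, adjusted p under 0.05).

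In libraries outside the comparisons, the one labelled SF326 stress replicate 3 held 100% of the genes particular to line SF317, and the one labelled SF009_SF279 control replicate 1 held 100% of those particular to line SF009. Both were left out.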

How the results depend on the processing

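Library sizes, the filter and the tool left the counts of mean differences within 1.5 times, and 4626 of the 11479 genes were called with the same sign under all 18 alternatives. For these counts, leaving out a replicate gave 8069 to 9590. The drought response count depended more on the processing. It was 435 with both doubted libraries kept, 534 with DESeq2 and 122 with the model with a shared SF317 term (23 up, 99 down). It was 154, 111, 88 and 118 without hybrids of SF009, SF092, SF109 and SF193, and 31 to 49 without a replicate. Without control replicates 1 and 3 of SF092_SF317, chosen after seeing the data, it was 122, without SF009_SF279 it was 202, and without hybrids of SF326 it was 391. Genes different from each parent could not be counted without hybrids of SF326. Control-only calls were 5569 to 6300 and stress-only calls 5285 to 7303 without a replicate, and calls between lines 6099 to 8960. Fits without a replicate or a parent rest on fewer plants. The cause of these changes was not tested. With 1 CPM as the limit of detection the median share of SF317-line genes was 85.7%. The slope difference did not pass under any of 14 alternatives, with values from -0.133 to 0.0185. Replicate numbers were not taken as pairing plants, since correlations of same-numbered deviations were not over 0.1 in every pair. So strict a rule cannot exclude an effect shared by plants of the same number. The correlations were 0.063, -0.057 and 0.041 between SF317 hybrids and the others. Between stress and control they were 0.072, 0.013 and 0.0086 over the hybrids, and 0.066, 0.067 and 0.121 in SF317 hybrids. Within single hybrids, 23 of 46 stress and control pairs were over 0.1, with a median of 0.097 and a range from -0.165 to 0.263. With the replicate block the mean count was 11405, the response count 237 and the count between lines 10299. The 4 genes named for a mean difference passed under all 18 alternatives. Of the genes named for the drought response, HanXRQChr16g0518451 failed under 7, HanXRQChr13g0416071 under 3 and HanXRQChr12g0360091 under 1. Depth limits small differences most in genes of low level.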
